A study of Mus musculus with 4 samples.

Results

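Imprinted genes that lie outside the Dlk1-Dio3 region were followed in mouse E14 embryonic stem cells after Ssrp1 was targeted with Cas9. Members were taken as the rows of the deposited count table that carry 1 of the 46 listed symbols; 45 of 55353 rows matched, and 37 of these had enough counts to be tested. E14 is a widely used embryonic stem cell line, labelled here as strain 12910la, and all cells were grown on gelatin in serum with LIF. There were 2 libraries labelled wild type, called control 1 and 2 here, and 2 labelled Ssrp1 KO. Whether a group's libraries derive from separate cultures or from more than 1 clone is not labelled, and p-values therefore cover only the spread between these libraries, which may be technical. The protocol text shared by all 4 libraries also mentions an shRNA vector against Usp7 and the transfection of wild-type cells with the empty vector under puromycin, without saying whether these controls received it.

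An imprinted gene is expressed mainly from the copy inherited from 1 parent. The choice is written as DNA methylation laid down in the egg or the sperm at imprinting control regions, and it is kept through cell division by the zinc finger protein ZFP57, its partner TRIM28 and the methyltransferase DNMT1. Imprinted genes sit in clusters in which a noncoding RNA or an insulator often sets which copy of its neighbours is active, and many of them regulate the growth of the embryo and placenta. SSRP1 is a subunit of the histone chaperone FACT, which helps polymerase pass nucleosomes. Counts per gene do not tell the parental copies apart, so each value given here is the sum over both copies.

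Ssrp1 RNA itself was at 281.9 and 305.4 CPM (counts scaled to the normalised library size) in controls against 305.1 and 326.9 CPM in the knockout-labelled libraries (log2 fold change 0.11 ± 0.06 SE, adjusted p 0.226 by edgeR's quasi-likelihood test). The groups overlapped, so RNA level gives no check on the genotype, and the name knockout-labelled is kept for that group. Total counts ranged from 22611434 to 25344190 per library. Gm26917 and Gm42418, whose reads resemble ribosomal RNA, took 9.72% to 10.3% of counts in the controls and 4.64% to 6.30% in the knockout-labelled libraries. All 12 embryonic stem cell markers on the list, among them Pou5f1, Sox2 and Nanog, were detected; 7 fell and 3 rose, and their summed level was 6351 to 6457 CPM in the controls and 5158 to 5248 CPM in the knockout-labelled libraries. Of 8 markers of 2-cell-like cells, which resemble the early embryo, 7 were tested and 7 rose. Each of these had at most 9 counts in a control and met the filter on low counts only through the knockout-labelled libraries. A rise was thus the only call they could give. The 8 markers summed to 0.245 to 0.770 CPM in the controls and 47.9 to 51.9 CPM in the knockout-labelled libraries. Of 12 primitive and visceral endoderm markers, Afp and Ttr had no count, 9 were tested, 6 rose and 1 fell, and the sums were 393.9 to 432.8 and 334.3 to 347.0 CPM. The sum fell with Apoe, from 307.2 and 276.8 to 171.9 and 189.9 CPM, while Gata6, Gata4, Sox7, Dab2, Col4a1 and Pdgfra rose. Sox7 met the filter on low counts only through the knockout-labelled libraries. Of 8 fibroblast markers, Postn and Lum had no count, 3 were tested and 1 fell, with sums of 129.3 to 129.7 and 87.1 to 87.6 CPM. Most of that sum was Vim, the 1 that fell, at 110.7 and 111.4 against 71.1 and 68.0 CPM. The part of these cell types in the results was not tested.

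Imprinted genes changed in both directions. At an adjusted p under 0.05, 11 of the 37 tested members were lower and 7 were higher in the knockout-labelled libraries, that is 48.6% of them, against 33.6% of all 17482 genes tested; 29.7% of the members were lower against 17.2% of all genes, and 18.9% were higher against 16.5%. With at least 5 CPM in 2 libraries, 7 of 32 members were higher and 10 lower, against 2332 and 2426 of 11033 genes. Members were not matched to the other genes by level. The median log2 fold change was -0.07 over the members and 0.00 over all genes tested. The groups did not overlap for 30 members (81.1%), against 66.6% of all tested genes. Log2 fold changes ran from -1.53 for Mest to 1.65 for Peg12, and 4 members fell and 2 rose by at least 1 log2 unit. Peg12 met the filter on low counts only through the libraries in which it is high, so its rise is no support for these counts; the next largest rise was 1.17, of Grb10. Without control 2, or with DESeq2, 5 members were higher; scaling by library size alone gave 10 higher and 9 lower. Over all genes, 2877 were higher and 3000 lower, and that scaling gave 3882 higher and 2215 lower. The pairs of libraries differed in spread. Over genes with at least 20 counts in a pair, chi-square per degree of freedom was 3.37 between the controls. Between the knockout-labelled libraries it was 11.5, with Gm26917 and Gm42418 included. A fit without 1 library takes its spread mainly from the pair that is left, so a call can change there at a like log2 fold change.

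**Figure D1:**
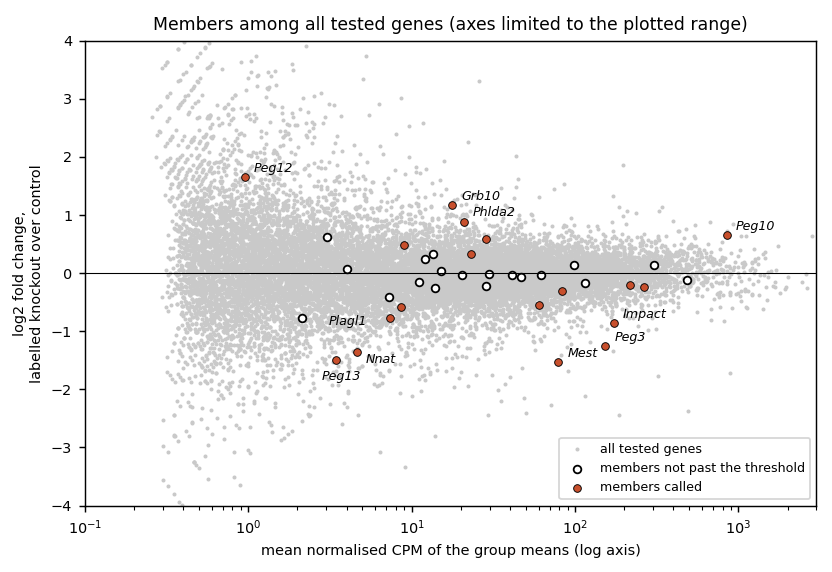
Log2 fold change of the knockout-labelled libraries over the controls (vertical axis) against the mean of both group means in normalised CPM (horizontal log axis), for all tested genes (grey) and the 37 tested members (black outlines, filled where the adjusted p was under 0.05). Mest, Peg13, Nnat and Peg3 are the called members below -1 and Peg12 and Grb10 those above 1; 157 other genes lie outside the plotted range.

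The DNA just before the transcription start is shown for the called members that changed by at least 1 log2 unit, since several imprinting control regions lie at promoters. Peg13 has no entry in the table used. The stretches are RefSeq sequence of build GRCm38.p6, which is mm10, written 5′ to 3′ on the strand of the gene, and bases that lie in an annotated exon were left out. Where a gene has several starts, the one whose window holds most CpG was taken. Capitals mark TGCCGC or its reverse complement GCGGCA, the hexamer that ZFP57 binds when its CpG is methylated.
Mest (chr6:30737800-30738049, plus strand): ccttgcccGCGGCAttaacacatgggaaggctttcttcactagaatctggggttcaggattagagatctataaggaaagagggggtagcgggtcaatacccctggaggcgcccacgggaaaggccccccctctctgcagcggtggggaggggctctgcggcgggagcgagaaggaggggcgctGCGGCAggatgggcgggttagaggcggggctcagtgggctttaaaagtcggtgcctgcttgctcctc
Nnat (chr2:157560008-157560077, plus strand): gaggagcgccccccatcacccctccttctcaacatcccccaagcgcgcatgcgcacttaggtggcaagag
Peg3 (chr7:6730463-6730577, minus strand): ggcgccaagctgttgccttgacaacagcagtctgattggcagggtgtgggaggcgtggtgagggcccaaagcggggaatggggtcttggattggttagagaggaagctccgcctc
Grb10 (chr11:12037429-12037670, minus strand): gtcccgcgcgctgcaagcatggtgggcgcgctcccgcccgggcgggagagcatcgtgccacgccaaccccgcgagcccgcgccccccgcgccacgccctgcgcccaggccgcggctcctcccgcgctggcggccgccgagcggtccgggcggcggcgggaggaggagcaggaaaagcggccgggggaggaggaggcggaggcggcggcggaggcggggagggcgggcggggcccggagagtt
Peg12 (chr7:62464511-62464760, minus strand): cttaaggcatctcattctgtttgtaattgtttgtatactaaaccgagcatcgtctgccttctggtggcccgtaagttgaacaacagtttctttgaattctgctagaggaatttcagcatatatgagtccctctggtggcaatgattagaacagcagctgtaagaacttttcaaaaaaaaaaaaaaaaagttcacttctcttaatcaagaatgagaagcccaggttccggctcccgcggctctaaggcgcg

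The Mest stretch holds the hexamer 2 times and 14 CpG in 250 bases, and the Grb10 stretch holds 40 CpG in 242 bases and no hexamer. In the full 300-base windows (250 bases before the start and 50 after), Nnat and Grb10 hold the hexamer 1 time each, outside the part printed, and Peg3 and Peg12 hold none. Member windows on chromosome 18, where Impact lies, were left out, whereas the values over all symbols and all windows kept that chromosome. Of the 46 members, 37 then had a window. Of these, 14 (37.8%) had the hexamer on either strand in at least 1 window, counting overlapping matches. Tested or not, 13.1% of all 27025 symbols with a window had it, and 21.7% of the 11491 that were tested. By window, it was in 15 of 54 for the members (27.8%) and in 11.6% of all 32851; 1 window belongs to both Snrpn and Snurf and was counted for each. Member windows also held more CpG, with a median of 15.5 against 7 in all windows. Of called members with a window, 5 of 9 that were lower and 1 of 5 that were higher had the hexamer. Impact, which was lower, is not counted there. Called or not, 14 of the 37 members with a window had it, and whether the hexamer goes with a change was not tested. A match describes these letters only and does not show binding.

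The largest falls were of genes expressed from the paternal copy. Mest, which encodes a hydrolase-fold protein of the endoplasmic reticulum and lies on chromosome 6 (30723547 to 30748465, mm10), was at 119.5 and 115.3 CPM in controls against 42.1 and 39.0 CPM in the knockout-labelled libraries. The fitted log2 difference of -1.53 ± 0.07 (SE, n = 2 libraries in each group) had an edgeR adjusted p of 5.7e-12. Both knockout-labelled libraries lay far below both controls. Copg2, a coat protein gene whose 3′ end overlaps that of Mest on the opposite strand, fell less, from 92.7 and 91.3 to 78.3 and 71.0 CPM (-0.30 ± 0.07, adjusted p 0.0030). The pair shares 912 exonic bases, 23.1% of those of Mest. Whether counting used strand is not given in the sources used here, and how much of the Copg2 value comes from Mest reads was not tested.

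Peg3 (chromosome 7, 6703892 to 6730431), a large zinc finger gene, was at 220.8 and 212.1 CPM in controls against 86.7 and 94.3 CPM in the knockout-labelled libraries (-1.26 ± 0.07, adjusted p 2.7e-11). Its neighbours in the same domain did not pass with all libraries. The paternally expressed pseudogene Zfp264 was at 8.42 and 8.08 against 7.22 and 5.16 CPM (-0.41 ± 0.18, adjusted p 0.088). The maternally expressed zinc finger gene Zim1 was at 2.85 and 1.92 against 3.46 and 3.82 CPM (0.62 ± 0.27, adjusted p 0.089). The fitted change of Zim1 was thus above 0 and those of Peg3 and Zfp264 below 0, in groups that did not overlap. Both values moved with single libraries: Zfp264 was at -0.67 (adjusted p 0.0064) without replicate 1 and at -0.19 without replicate 2 of the knockout-labelled libraries, and Zim1 at 0.92 (adjusted p 0.039) without control 1 and at 0.35 without control 2. Usp29, transcribed away from Peg3, was at 5.71 and 5.43 against 6.54 and 6.97 CPM (adjusted p 0.248).

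Nnat, which encodes a small membrane proteolipid abundant in developing brain, was at 6.70 and 6.61 CPM in controls against 1.97 and 3.19 CPM in the knockout-labelled libraries (-1.36 ± 0.23, adjusted p 1.3e-04). The knockout-labelled libraries differed between themselves by more than the controls did. Leaving out replicate 2 of the knockout-labelled libraries gave -1.76, and leaving out replicate 1 gave -1.06. Blcap, the gene in whose intron Nnat lies, was at 29.4 and 30.7 against 32.3 and 27.3 CPM (-0.01 ± 0.10, adjusted p 0.937). Of 8 neural markers, 4 fell and 1 rose, and their summed level was 180.7 to 189.6 CPM in the controls and 104.4 to 112.1 CPM in the knockout-labelled libraries. Most of the fall of the sum was Ncam1, from 82.1 and 86.7 to 14.5 and 17.4 CPM, while Nes rose from 11.3 and 12.6 to 23.6 and 24.5 CPM. The part of neural cells in the Nnat value was not tested, and in bulk RNA fewer cells of a type and less RNA per cell cannot be told apart.

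Peg13, a noncoding RNA within an intron of Trappc9 on chromosome 15 (72805600 to 72810324), was at 5.48 and 4.69 CPM in controls against 1.75 and 1.85 CPM in the knockout-labelled libraries (-1.49 ± 0.25, adjusted p 1.1e-04). Trappc9, a subunit of a vesicle tethering complex, is read from the same strand and was at 32.6 and 29.1 against 26.9 and 26.1 CPM (-0.22 ± 0.10, adjusted p 0.102). Total RNA holds unspliced host transcript, and its share in the Peg13 counts was not tested. Impact, a paternally expressed regulator of the amino acid sensor GCN2, fell from 230.3 and 215.4 to 134.1 and 112.0 CPM (-0.86 ± 0.08, adjusted p 4.8e-08). Plagl1, a zinc finger factor that controls other imprinted genes, fell from 8.61 and 9.95 to 5.09 and 5.84 CPM (-0.77 ± 0.17, adjusted p 0.0017). In all 3 genes the groups were apart. Zdbf2, a paternally expressed zinc finger gene, was at 244.7 and 221.8 against 201.0 and 205.7 CPM, a small fall (-0.20 ± 0.07, adjusted p 0.025) that was lost without control 1 (adjusted p 0.400) and with scaling by library size alone (0.198).

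**Figure D2:**
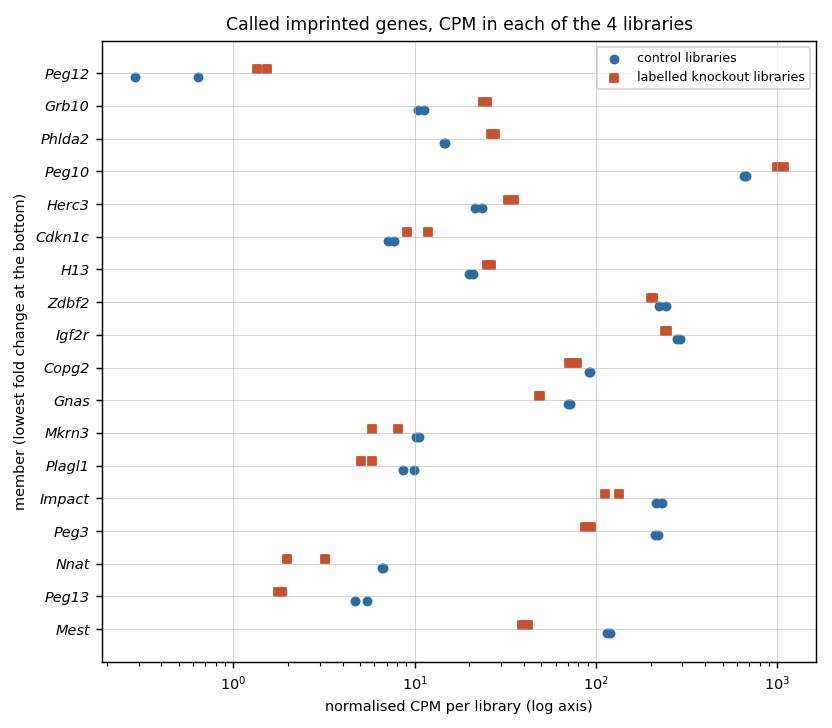
Normalised CPM (horizontal log axis) in each of the 2 control libraries (circles) and the 2 knockout-labelled libraries (squares) for the 18 called members, ordered by log2 fold change. In every row both libraries of a group lie on the same side of the other group; Mest is at 115.3 to 119.5 CPM in the controls and 39.0 to 42.1 CPM in the knockout-labelled libraries.

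Grb10 (chromosome 11, 11930508 to 12038683), an adaptor that dampens insulin and IGF1 receptor signalling, was at 11.3 and 10.5 CPM in controls against 25.1 and 23.7 CPM in the knockout-labelled libraries (1.17 ± 0.12, adjusted p 3.1e-07). Both knockout-labelled libraries held more than 2 times the level of either control. Ddc, the neighbouring decarboxylase gene, was at 11.8 and 10.2 against 14.3 and 11.9 CPM (0.25 ± 0.14, adjusted p 0.192). Cobl, an actin nucleator gene of the same domain that is on the list of other imprinted genes, went the other way, from 379.0 and 363.7 to 185.6 and 189.4 CPM (-0.99 ± 0.06, adjusted p 2.8e-10).

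In the Kcnq1 domain on chromosome 7, the paternal noncoding RNA Kcnq1ot1 silences neighbours in cis. It was at 501.5 and 502.0 CPM in controls against 451.6 and 477.5 CPM in the knockout-labelled libraries (-0.11 ± 0.06, adjusted p 0.164). Without replicate 2 of the knockout-labelled libraries its log2 fold change was -0.15. Phlda2 (143501545 to 143503150), a maternally expressed gene that limits placental growth, rose from 14.8 and 14.5 to 26.3 and 27.9 CPM (0.89 ± 0.11, adjusted p 3.9e-06). Cdkn1c, which encodes the cell cycle inhibitor p57, rose from 7.16 and 7.71 to 9.02 and 11.9 CPM (0.49 ± 0.17, adjusted p 0.026). The Phlda2 groups were well apart, whereas the Cdkn1c rise was lost without replicate 2 of the knockout-labelled libraries (0.28, adjusted p 0.293), without control 1 (adjusted p 0.115) and with DESeq2 (0.085). Other members of the domain did not pass with all libraries. The transporter gene Slc22a18 was at 2.72 and 2.65 against 2.01 and 1.13 CPM (adjusted p 0.079), the tetraspanin gene Cd81 at 118.2 and 126.8 against 109.4 and 108.7 CPM (adjusted p 0.060), and Tssc4, which acts in spliceosome assembly, at 11.9 and 11.6 against 10.7 and 10.4 CPM (adjusted p 0.407). The log2 fold change of Cd81 was -0.168 with all libraries. It was -0.172 without replicate 1 and -0.166 without replicate 2 of the knockout-labelled libraries. Slc22a18 had a log2 fold change of -0.77 ± 0.33, which became -1.24 (adjusted p 0.012) without replicate 1 of the knockout-labelled libraries.

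Peg10, a gag-pol-like gene derived from a retrotransposon and needed for the placenta, was the most abundant member. It was at 655.3 and 668.6 CPM in controls against 996.8 and 1089.2 CPM in the knockout-labelled libraries (0.66 ± 0.06, adjusted p 6.9e-08). Per kilobase of exon it stood at 99.3 CPM in the controls, followed by Impact at 43.4 CPM per kilobase and Cd81 at 42.5. Sgce, a sarcoglycan gene that starts 98 bases from Peg10 and is read the other way, was at 20.2 and 21.2 CPM in controls against 19.4 and 20.9 CPM in the knockout-labelled libraries (-0.03 ± 0.11, adjusted p 0.841). The groups overlapped for Sgce and not for Peg10; the difference between these neighbours was not tested. Ppp1r9a, an actin-binding neurabin gene further along, was at 95.1 and 92.0 against 100.6 and 105.2 CPM (adjusted p 0.126). Of 12 trophoblast markers, the placental genes Prl3d1 and Tpbpa had no count, 5 were tested and 1 rose; their summed level was 32.4 to 34.2 CPM in the controls and 41.8 to 48.4 CPM in the knockout-labelled libraries, and its part in the values of Peg10, Phlda2 and Cdkn1c was not tested.

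Like Nnat and Peg13, the retrogenes Mcts2, Nap1l5 and Zrsr1, each a copy made from a spliced RNA, lie inside another member. Mcts2 was at 12.5 and 11.5 CPM in controls against 14.2 and 16.0 CPM in the knockout-labelled libraries (0.33 ± 0.13, adjusted p 0.058). H13, its host and a signal peptide peptidase gene, rose from 19.9 and 21.1 to 26.3 and 25.2 CPM (0.33 ± 0.11, adjusted p 0.021). Both fitted changes were of like size. Mcts2 is read from the same strand as H13, and the share of unspliced H13 transcript in its counts was not tested. Neither call was stable. H13 was lost with DESeq2 (adjusted p 0.058). It was also lost without control 1 (log2 fold change 0.28) and without control 2 (0.37). Mcts2 passed with scaling by library size alone (adjusted p 0.020), at least 5 CPM in 2 libraries (0.040) and the replicate number as a block (0.046). Its log2 fold change was 0.42 without replicate 1 and 0.24 without replicate 2 of the knockout-labelled libraries. Mcts1, the X-linked parent gene of Mcts2, was at 12.7 and 13.3 against 16.5 and 11.6 CPM (adjusted p 0.605).

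Zrsr1, a splicing factor retrogene, was at 15.0 and 15.3 against 13.3 and 12.1 CPM (-0.26 ± 0.13, adjusted p 0.131), and its host Commd1, a copper homeostasis gene, at 14.9 and 14.8 against 16.1 and 14.5 CPM (adjusted p 0.836). Its X-linked paralog Zrsr2 rose from 35.7 and 32.5 to 40.1 and 44.4 CPM (0.31 ± 0.09, adjusted p 0.014). Nap1l5 was almost silent, with 3 and 5 counts in controls against 3 and 3 counts in the knockout-labelled libraries. Its host Herc3, a ubiquitin ligase gene, rose from 23.6 and 21.6 to 32.9 and 35.3 CPM (0.60 ± 0.10, adjusted p 1.2e-04) with no overlap of the groups. How reads that match 2 copies were treated is not given in the sources used here, so the split between a retrogene and its parent gene is uncertain.

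The Prader-Willi and Angelman domain on chromosome 7 was mixed. Snrpn, a core splicing protein gene of the paternal copy, was at 61.1 and 64.6 CPM in controls against 60.7 and 62.6 CPM in the knockout-labelled libraries (-0.03 ± 0.08, adjusted p 0.805). The groups overlapped. Of the 2159 annotated exonic bases of Snrpn, 589 also belong to Gm38393 on the same strand, so these counts may not measure all Snrpn RNA. Snurf, its upstream reading frame on the same transcript, had 0 counts in all 4 libraries; all 216 of its annotated exonic bases also belong to Snrpn, so the 0 does not measure its RNA. Mkrn3, a ubiquitin ligase gene known for its role in the timing of puberty, fell from 10.6 and 10.2 to 5.81 and 8.06 CPM (-0.58 ± 0.17, adjusted p 0.011), a call lost without replicate 1 of the knockout-labelled libraries (-0.37, adjusted p 0.107). Peg12, an intronless gene related to the Wnt regulators Frat1 and Frat2, had 14 and 7 counts in controls against 36 and 32 counts in the knockout-labelled libraries (1.65 ± 0.50, adjusted p 0.014). It was the only tested member that met the filter through the knockout-labelled libraries alone, and the call was lost without control 2 (adjusted p 0.155) or without replicate 1 of the knockout-labelled libraries (0.071). Frat1 fell from 4.39 and 5.55 to 3.46 and 1.85 CPM (adjusted p 0.013), and Frat2 was at 7.79 and 6.81 against 5.77 and 7.01 CPM (adjusted p 0.448).

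Ndn, a MAGE family gene, was at 4.21 and 3.67 against 3.72 and 4.58 CPM (adjusted p 0.828), and its relative Magel2 had 3 and 6 against 4 and 15 counts, too few to test. Ube3a, the ubiquitin ligase gene imprinted in neurons, was at 281.3 and 293.2 CPM in controls against 337.5 and 298.9 CPM in the knockout-labelled libraries (0.15 ± 0.07, adjusted p 0.098). Ube3a passed with scaling by library size alone (0.23, adjusted p 0.011). Leaving out 1 library gave log2 fold changes from 0.058 to 0.23.

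H19 and Igf2 share an insulator and enhancers, H19 being a maternal noncoding RNA and Igf2 a paternal growth factor gene. H19 was at 48.5 and 46.6 CPM in controls against 43.4 and 47.1 CPM in the knockout-labelled libraries (-0.07 ± 0.08, adjusted p 0.555), and the groups overlapped. Igf2 had 0 and 1 counts in controls against 9 and 6 counts in the knockout-labelled libraries, too few to test; the ratio of summed, scaled counts was 14.8 with an exact (Clopper-Pearson) 95% counting interval of 2.28 to 623. On the same strand, 3596 of the 5723 annotated exonic bases of Igf2 also belong to Gm49394, so these counts may not measure all Igf2 RNA. Igf2r, the maternal receptor gene that clears IGF2, was at 290.8 and 281.0 CPM in controls against 247.4 and 240.1 CPM in the knockout-labelled libraries (-0.23 ± 0.06, adjusted p 0.0067). That small fall was lost with scaling by library size alone (adjusted p 0.073). The call was also lost without control 1 (-0.21) and without control 2 (-0.26), where the SE was 0.10. Airn, the paternal RNA antisense to Igf2r, had 1 and 4 against 2 and 11 counts, and the transporter gene Slc22a3 of the same domain 0 and 0 against 1 and 0.

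In the Gnas domain on chromosome 2, Gnas, which encodes the stimulatory G protein subunit and several transcripts of opposite imprinting, fell from 71.9 and 70.5 to 49.0 and 48.8 CPM (-0.54 ± 0.08, adjusted p 1.4e-05). The replicates lay close together in both groups. Nespas, the listed antisense RNA, matched no row under that symbol; the RefSeq table gives it as a synonym of Gnasas1, which was at 45.4 and 40.8 against 46.6 and 45.9 CPM (adjusted p 0.383). The annotated exons of Nespas and Gnas share 988 bases on opposite strands. The remaining members were Inpp5f, a phosphoinositide phosphatase gene with an imprinted isoform, at 41.9 and 41.7 against 45.1 and 36.4 CPM (adjusted p 0.797), the calcitonin receptor gene Calcr with 2 and 5 against 2 and 16 counts, and Rasgrf1, a Ras exchange factor gene, with 3 and 0 against 0 and 0 counts.

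By the copy usually expressed, 8 of 17 tested paternal members were lower and 2 higher, while 1 of 7 tested maternal members was lower and 3 higher. These are 47.1% and 11.8% of the paternal members and 14.3% and 42.9% of the maternal ones, against 17.2% and 16.5% of all genes. Of 13 whose imprinting is weak or restricted to a tissue or isoform, 2 were lower and 2 higher, or 30.8% called, which is near the 33.6% of all genes. Median log2 fold changes were -0.26, 0.49 and -0.01. The difference between these classes was not tested, members of 1 domain are not independent, and several of the calls were lost under an alternative: Cdkn1c among the maternal rises, Igf2r as the 1 maternal fall, Peg12 among the paternal rises, Mkrn3 and Zdbf2 among the paternal falls, and H13 in the third class.

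**Figure D3:**
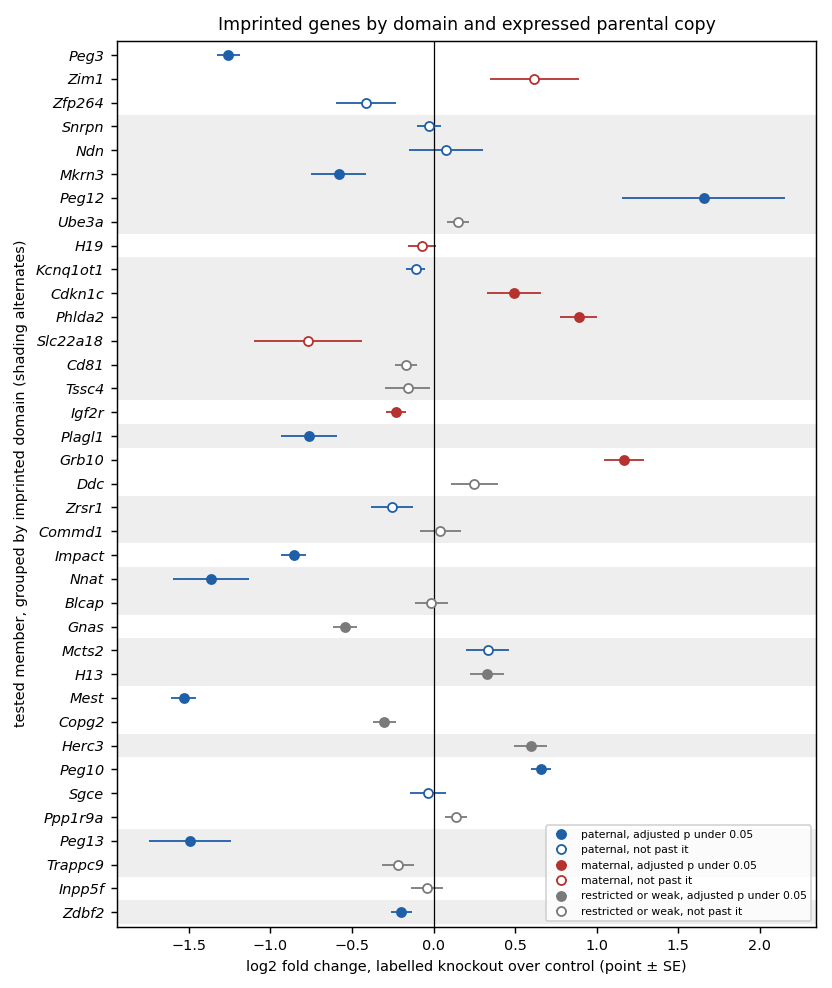
Log2 fold change with its SE (horizontal axis, 2 libraries per group) for the 37 tested members, grouped by imprinted domain (alternating shading) and coloured by the parental copy usually expressed; filled points had an adjusted p under 0.05. Among neighbours, Peg10 is at 0.66 and Sgce at -0.03, Nnat is at -1.36 and Blcap at -0.01, and Mcts2 and H13 are both at 0.33. Mcts2 lies inside H13 on the same strand. Differences between neighbours were not tested.

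Genes that set, keep or erase imprints were measured beside the members. Of 30 on the list 29 were tested, and 14 were higher and 5 lower, or 65.5% called against 33.6% of all genes; without control 1 the counts were 7 and 3. With at least 5 CPM in 2 libraries, 14 of 28 were higher and 4 lower, against 2332 and 2426 of 11033 genes. Dnmt3b, a methyltransferase that lays down methylation, rose from 92.6 and 103.4 to 232.2 and 257.2 CPM (1.32 ± 0.07, adjusted p 3.9e-11). Dppa3, which protects imprints from demethylation after fertilisation, rose from 2.22 and 2.90 to 12.5 and 14.7 CPM (2.40 ± 0.19, adjusted p 7.6e-09). Among the dioxygenases that oxidise methylcytosine, Tet1 fell from 1712.3 and 1713.7 to 1057.8 and 1189.3 CPM (-0.61 ± 0.06, adjusted p 2.3e-07) and Tet2 from 517.4 and 481.6 to 329.8 and 369.0 CPM (-0.52 ± 0.07, adjusted p 5.5e-06). Tet3 rose from 10.6 and 11.7 to 15.4 and 17.0 CPM (adjusted p 0.0030). Dppa3 is also a marker of the 2-cell-like state and of germ cells.

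The other 3 of the 5 lower genes were Zfp445, a zinc finger gene that acts beside Zfp57 in keeping imprints, Uhrf1, which brings DNMT1 to replicated DNA, and Dnmt1. Zfp445 fell from 156.4 and 152.6 to 127.3 and 128.3 CPM (-0.27 ± 0.06, adjusted p 0.0024), and Uhrf1 from 531.4 and 532.5 to 424.2 and 457.3 CPM (-0.27 ± 0.06, adjusted p 0.0017). Zfp57 was at 244.5 and 246.5 CPM in controls against 211.7 and 228.9 CPM in the knockout-labelled libraries (-0.16 ± 0.06, adjusted p 0.066). Trim28 rose from 1180.0 and 1207.4 to 1352.0 and 1495.4 CPM (0.25 ± 0.06, adjusted p 0.0025). Dnmt1 fell from 443.1 and 444.7 to 384.5 and 404.7 CPM (-0.17 ± 0.06, adjusted p 0.034). Methylation itself was not measured here. Genes beyond the 4 of smallest adjusted p on this list (Dnmt3b, Dppa3, Tet1 and Tet2) were named after their values were seen.

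**Figure D4:**
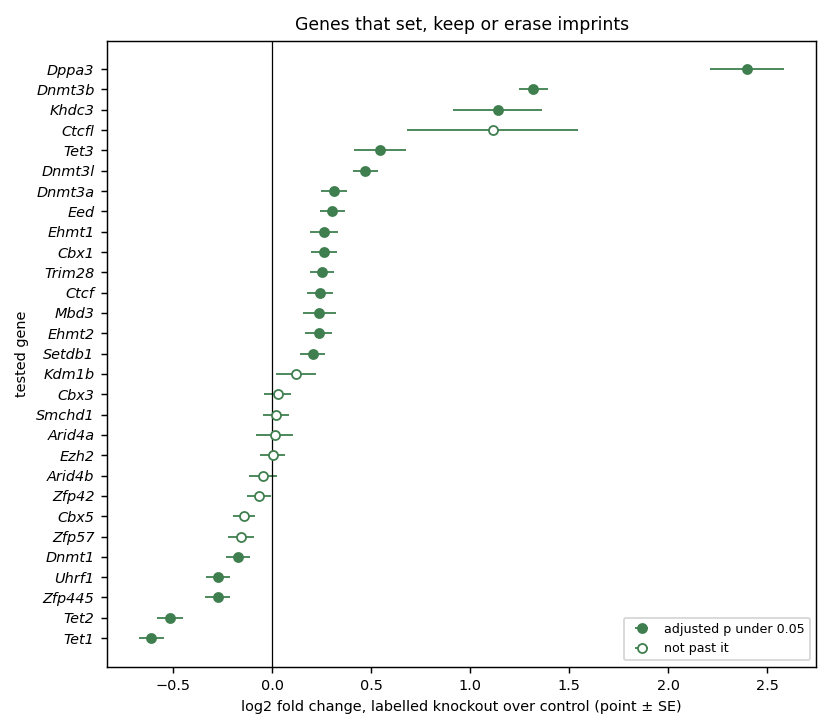
Log2 fold change with its SE (horizontal axis, 2 libraries per group) for the 29 tested genes of the list of imprint regulators, ordered by value; filled points had an adjusted p under 0.05. Dppa3 at 2.40 and Dnmt3b at 1.32 lie at the top, and Tet1 at -0.61 and Tet2 at -0.52 at the bottom.

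Of 38 other imprinted or domain genes, 26 were tested, of which 5 were higher and 3 lower (30.8% called). Tnfrsf23, 1 of the 5, had 1 and 4 counts in controls against 16 and 24 counts in the knockout-labelled libraries. It met the filter on low counts only through the latter. Besides Cobl, Ampd3, an AMP deaminase gene imprinted in placenta, fell from 20.9 and 21.2 to 10.3 and 9.66 CPM (-1.08 ± 0.12, adjusted p 1.4e-06). Smoc1, a secreted calcium-binding matrix gene, rose from 10.8 and 11.1 to 22.1 and 20.8 CPM (0.97 ± 0.12, adjusted p 3.9e-06), and Jade1, a subunit gene of the HBO1 acetyltransferase complex, from 436.6 and 427.1 to 535.8 and 529.5 CPM (0.30 ± 0.06, adjusted p 4.6e-04). The share called in this list was thus close to that over all genes.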

How the data were processed

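Total RNA freed of ribosomal RNA was sequenced in paired ends, strand-specifically per the series title, in 2 control libraries and 2 knockout-labelled libraries. Per the labels' protocols, cDNA was randomly primed with actinomycin D. Per the submitters' processing notes, reads were handled with featureCounts, HISAT2 and cutadapt on mm10. Their versions, the annotation, the strand setting and the handling of multi-mapping reads are not stated in what was used here. The authors deposited raw, unnormalized counts for each gene symbol. Columns written OK were matched to the KO titles by gene, role and number; 0 columns were left unmapped.

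Genes were filtered with filterByExpr (minimum count 10, minimum total 15) and compared in 1 fit over all genes with the quasi-likelihood F test of edgeR 4.0.16 in R 4.3.3 (TMM scaling, 2-sided, 2 residual degrees of freedom, Benjamini-Hochberg adjustment, threshold 0.05). CPM use TMM-scaled library sizes. SE is the size of the log2 fold change divided by the square root of F. Positions, exons and overlaps come from GENCODE M21 on the same build, starts and sequences from RefSeq GRCm38.p6. Levels per kilobase divide CPM by all annotated exonic bases. Counting intervals cover counting error only, since reads carry no molecular identifiers. The fit was tested on simulated data.

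The members and lists, including the grouping by parental copy, were chosen with earlier results of these data known. All 46 members are accounted for; of the other lists the 4 genes of smallest adjusted p past the threshold were to be named. Alternatives were library-size and RLE scaling, removal of Gm26917 and Gm42418, DESeq2 1.42.0, no filter, at least 5 CPM in 2 libraries, the replicate number as a block, and leaving out each library.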

Additional observations from a re-analysis of the deposited data

How the results depend on the processing

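Of the 18 called members, 12 kept their direction and stayed past the threshold under all of the 11 alternatives that tested them (Copg2, Gnas, Grb10, Herc3, Impact, Mest, Nnat, Peg10, Peg13, Peg3, Phlda2 and Plagl1; with at least 5 CPM in 2 libraries, Peg13 was not tested). The losses of Cdkn1c, H13, Igf2r, Mkrn3, Peg12 and Zdbf2 stand beside their values, and the cause was not tested. Of the 19 members not called, 8 passed under at least 1 alternative (Cd81, Kcnq1ot1, Mcts2, Ppp1r9a, Slc22a18, Ube3a, Zfp264 and Zim1). Changes of sign were seen only among 7 members that did not pass. With scaling by library size alone, which moved all genes by a median of 0.08, Blcap was at 0.069, H19 at 0.012, Inpp5f at 0.043, Sgce at 0.048 and Snrpn at 0.054, and of all calls 63.7% were higher in place of 49%. With at least 5 CPM in 2 libraries Blcap was at 0.0050. Leaving out 1 library gave log2 fold changes from -0.14 to 0.10 for Blcap, -0.036 to 0.11 for Commd1, -0.20 to 0.11 for Inpp5f, -0.084 to 0.22 for Ndn, -0.094 to 0.020 for Sgce and -0.076 to 0.0097 for Snrpn. It gave 1915 to 2995 higher genes (2877 with all libraries; 1915 without control 1), 7 to 14 higher and 3 to 7 lower imprint regulators, and 2 to 5 higher other imprinted genes, each lowest without control 1. Lower other imprinted genes numbered 3, and 5 with no filter on low counts.

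With the replicate number as a block, 8 members were higher and 12 lower, and 5 other imprinted genes were lower; Mcts2 (adjusted p 0.046) and Zfp264 (0.045) then passed, and no other member's call changed. Same-numbered libraries share only a number: their deviations correlated at 0.01 over genes.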

Other observations

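Transcripts of the imprinted domains outside the lists were looked at after the values were seen. Snhg14, the paternal host RNA of small nucleolar RNAs that runs antisense into Ube3a, was at 46.8 and 46.3 CPM in controls against 32.9 and 28.8 CPM in knockout-labelled libraries (-0.60 ± 0.09, edgeR adjusted p 4.5e-05), with no overlap of the groups. Its exons share 1803 bases with those of Ube3a. Mir296, a microRNA gene 14111 bases beyond the annotated 3′ end of Nespas and on its strand, had 35 and 49 counts in controls against 15 and 15 counts in the knockout-labelled libraries (-1.49 ± 0.42, adjusted p 0.0091). These counts come from fragments of total RNA over the hairpin and do not measure the mature microRNAs, which are given from RefSeq (GRCm38.p6, minus strand) with the seed, bases 2 to 8, in capitals.
mmu-miR-296-5p: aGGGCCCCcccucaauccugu
mmu-miR-296-3p: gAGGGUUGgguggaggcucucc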
